A study of Homo sapiens with 3 samples.

Results

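The genes that make, take up, move and store cholesterol, and the SREBP system that sets their level, were followed after knockdown of NONO in UM-UC-3, a line derived from human bladder cancer. A named list of 31 genes was used, and 30 of them were listed in all 3 library tables, out of 21308 genes that were. The exception was ABCG1, an exporter of sterols, which was listed in 1 table alone at 0.035 CPM (a gene's reads scaled to a fixed library total) with NONO siRNA 2. NONO codes for a nuclear protein that binds nucleic acids, and the study's title concerns its part in SETMAR splicing and in metastasis through lymph vessels. All cells were of the same line, kept in medium with serum, and received 75 nM of siRNA for 48 h. The control group was 1 library from cells given a negative control siRNA, and the NONO group was 2 libraries, 1 for each of 2 independent NONO siRNAs. The labels do not say whether the libraries came from separate cultures, so p-values measure no more than a spread between libraries. With 1 control library, a gene's own spread is only the difference between its 2 NONO siRNA libraries. The tests combine it with the spread over all genes, and no spread between control libraries is measured. Where 3 values follow each other below, they are in the order control, NONO siRNA 1, NONO siRNA 2.

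Cholesterol is built in the endoplasmic reticulum from acetyl-CoA, by way of mevalonate, isoprenyl phosphates, squalene and lanosterol. The transcription factors SREBP1 and SREBP2, coded by SREBF1 and SREBF2, are made as membrane proteins and are held there by SCAP and the INSIG proteins while sterols are plentiful. When sterols run low, SCAP carries them to the Golgi, proteases release their active part, and this part binds sterol regulatory elements in the promoters of the synthesis genes and of INSIG1 itself. Sterol excess acts through the LXR receptors, which induce exporters such as ABCA1.

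The siRNA strands are shown because short matches to a strand's seed, bases 2 to 8, are known to lower other transcripts, and such matches were searched for in the genes described here. The labelled sequence of each NONO siRNA matched transcripts of NONO, on chromosome X, and of the annotated gene AC092115.1, so its complementary strand is the one that pairs with NONO mRNA. Capitals mark the seed, and each strand is written 5′ to 3′ without its overhang.
NONO siRNA 1, complementary strand: uAUGAAUGaagacuucgcc
NONO siRNA 2, complementary strand: uUCGAACUguaagggaugc
Control siRNA, labelled strand: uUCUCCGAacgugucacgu
Control siRNA, complementary strand: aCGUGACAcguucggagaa

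Promoters are shown for 5 genes on which the results turn. HMGCS1, PMVK and MVD were at least 1.5-fold higher with both NONO siRNAs, and INSIG1 was at least 1.5-fold lower with both. SREBF2 was the only gene of the 27 matched to RefSeq promoters that held TCACNCCAC, the searched form of the sterol regulatory element. Each is the 250 bases before a RefSeq start, on GRCh38.p14, read along the gene's strand: HMGCS1 at chr5:43313413-43313662 (minus strand), PMVK at chr1:154936720-154936969 (minus), MVD at chr16:88663092-88663341 (minus), INSIG1 at chr7:155297628-155297877 (plus) and SREBF2 at chr22:41832855-41833104 (plus). Capitals mark matches, on either strand, to TCACNCCAC (the sterol regulatory element), CCAAT (bound by NF-Y, a known partner of SREBP), GGGCGG (bound by Sp1) and CACGTG (an E-box), and neighbouring matches may share bases.
HMGCS1: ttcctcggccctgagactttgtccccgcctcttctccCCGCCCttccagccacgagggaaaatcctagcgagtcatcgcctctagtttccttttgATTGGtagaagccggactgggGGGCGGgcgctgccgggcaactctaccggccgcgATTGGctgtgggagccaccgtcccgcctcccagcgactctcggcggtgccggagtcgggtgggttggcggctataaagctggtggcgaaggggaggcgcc
PMVK: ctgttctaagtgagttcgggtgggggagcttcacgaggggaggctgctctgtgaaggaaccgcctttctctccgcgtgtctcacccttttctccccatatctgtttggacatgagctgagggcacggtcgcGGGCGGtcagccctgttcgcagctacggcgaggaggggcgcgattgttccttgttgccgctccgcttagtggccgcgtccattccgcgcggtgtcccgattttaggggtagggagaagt
MVD: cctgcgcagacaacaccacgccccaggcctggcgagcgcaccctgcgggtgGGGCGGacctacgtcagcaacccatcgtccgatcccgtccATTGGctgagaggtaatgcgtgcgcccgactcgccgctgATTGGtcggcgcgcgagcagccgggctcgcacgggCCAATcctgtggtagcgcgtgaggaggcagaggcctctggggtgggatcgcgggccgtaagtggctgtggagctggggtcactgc
INSIG1: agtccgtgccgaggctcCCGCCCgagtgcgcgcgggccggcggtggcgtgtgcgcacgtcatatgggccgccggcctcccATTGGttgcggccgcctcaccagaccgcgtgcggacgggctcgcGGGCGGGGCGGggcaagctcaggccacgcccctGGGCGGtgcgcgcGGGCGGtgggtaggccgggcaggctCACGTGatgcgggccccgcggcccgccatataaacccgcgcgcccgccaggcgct
SREBF2: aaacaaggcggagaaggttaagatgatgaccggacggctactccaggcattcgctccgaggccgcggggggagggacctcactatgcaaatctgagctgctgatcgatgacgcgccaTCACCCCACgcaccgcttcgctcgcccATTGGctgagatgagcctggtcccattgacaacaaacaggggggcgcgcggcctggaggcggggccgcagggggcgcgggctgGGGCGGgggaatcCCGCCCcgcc

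GGGCGG was the box found in most of these promoters, followed by CCAAT. The latter was found in 20 of the 27 (74.1%), against 41.7% of 10200 tested genes with a promoter and 37.0% of all 27305 genes with one. GGGCGG was found in 26 (96.3%), against 74.9% of tested genes and 46.2% of all. CACGTG was found in 4 (14.8%), among them INSIG1, SC5D and SCAP, against 11.1% and 7.73%. TCACNCCAC was found in SREBF2 alone (3.70%), 133 bases before its start, against 1.14% and 1.09%. A gene with several starts was counted once if any of its windows held the box, and a match is a description of the letters and not of a bound site.

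As implied by the CPM steps, the libraries held 27681990, 29408573 and 28594569 reads on genes. The targeted gene, NONO, stood at 823, 79.5 and 104 CPM, and it fell in limma's test (SE of the mean log2 fold 0.24, adjusted p = 0.00698). Markers of the line were read from fixed lists. Of the 4 epithelial keratins, KRT8 and KRT18 stood between 43.0 and 111 CPM, while KRT7 reached at most 1.30 CPM and KRT19 at most 0.210 CPM, and the epithelial junction genes CDH1 and EPCAM were not listed in all tables. Among mesenchymal genes, ZEB1 stood between 176 and 207 CPM, CDH2 between 54.6 and 80.8 CPM and VIM, the mesenchymal filament protein, between 947 and 1380 CPM. The urothelial markers were low: UPK1A and UPK2 reached at most 0.442 CPM, and UPK1B and UPK3A were not listed in all tables. GATA3 reached at most 2.04 CPM and PPARG at most 4.30 CPM. Among leukocyte, endothelial and hepatocyte markers listed in all tables, the highest was PECAM1, at no more than 1.73 CPM. In bulk RNA, fewer cells of a kind and less RNA per cell cannot be told apart.

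Most of the 30 genes stood somewhat higher after NONO knockdown, without passing the test. With both siRNAs 18 of the 30 were higher (against 37.8% of the 13922 genes tested), 6 were lower (20.0%, against 34.5%), and 6 had opposite signs. Their median log2 fold, on log2(CPM + 1), was 0.14 with siRNA 1 and 0.38 with siRNA 2, beside 0.03 and 0.01 over all genes tested. None of the 30 passed limma's test at an adjusted p under 0.05, which 0.215% of all genes did, and the lowest adjusted p was 0.133. edgeR on the recovered reads called none of the 30 (0.920% of 16963 genes), and DESeq2 called none of the 29 to which it gave an adjusted p (1.68% of 11806 genes). At an unadjusted limma p under 0.05 were 6 of the 30 (20.0%, against 11.4% of all genes): HMGCS1, PMVK, MVD, FDPS and SREBF1 were higher and INSIG1 was lower. Both siRNAs are set against the same control library, so their folds share its error. The list was chosen with earlier results of these data known, so the shares beside all genes are description only.

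**Figure D1:**
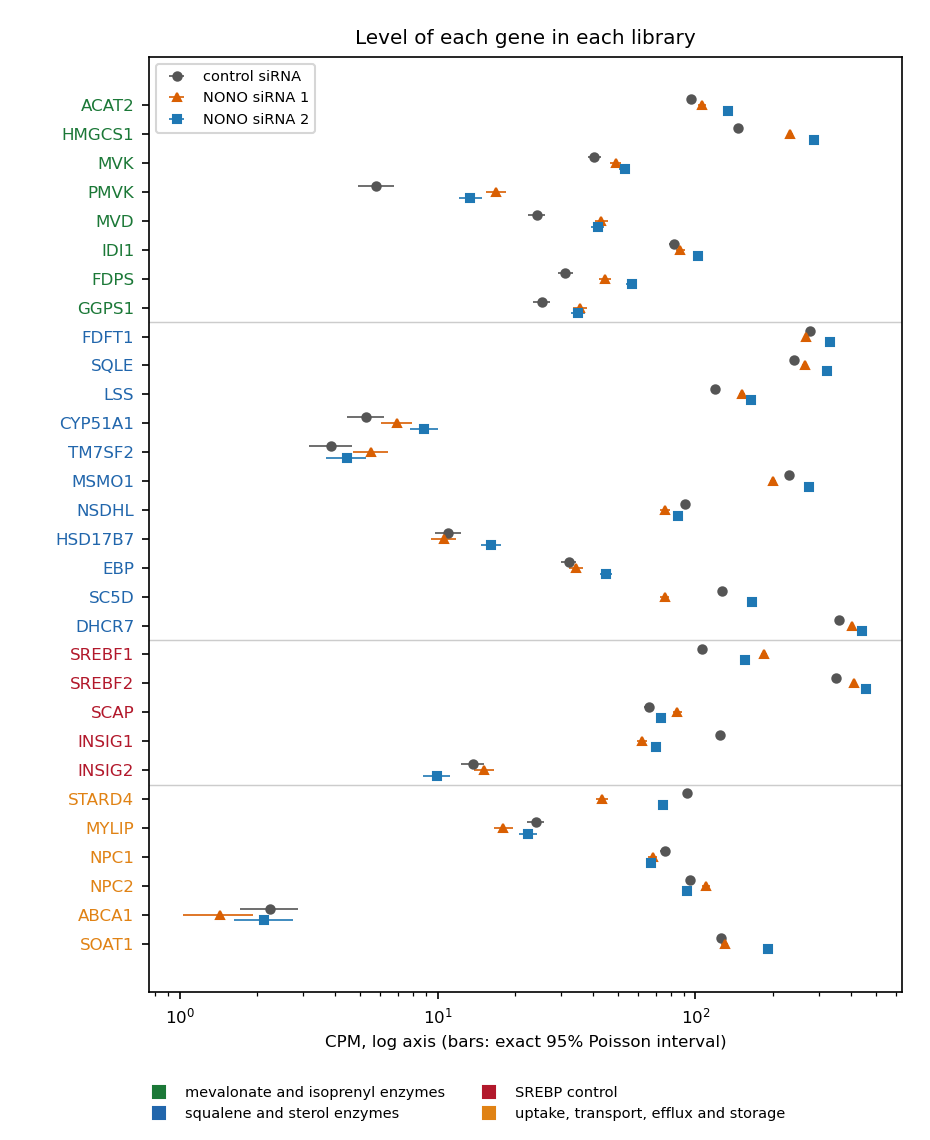
Level of each of the 30 genes in CPM on a log axis, in the control library (grey circles), with NONO siRNA 1 (orange triangles) and with NONO siRNA 2 (blue squares); bars are exact 95% Poisson intervals and cover counting error only, and the colour of a name gives its role. All 8 mevalonate and isoprenyl genes have both NONO points to the right of the control, and INSIG1 has both to the left, at 61.9 and 70.5 CPM against 125 CPM.

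A size of 1.5-fold was used to describe the larger differences. Past it in the higher direction with both siRNAs were 3 of the 30 (against 5.49% of all genes), and in the lower direction 1 (against 3.39%). Taking siRNA 1 by itself, 4 genes were past it as higher (13.3%, against 10.0%) and 3 as lower (against 9.09%). For siRNA 2 by itself the counts were 6 higher (20.0%, against 9.98%) and 1 lower (against 6.89%). The shares with siRNA 1 and the share lower with both are thus close to those of all genes.

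The mevalonate and isoprenyl enzymes formed the group that stood highest. All 8 were higher with both siRNAs, against 37.8% of all genes tested, with median log2 folds of 0.49 and 0.62. Summed over the 8 genes, the level was 451.6, 615.8 and 725.3 CPM. At an unadjusted limma p under 0.05 were 4 of the 8, against 11.4% of all genes, and none passed after adjustment over all genes.

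HMGCS1, the cytosolic HMG-CoA synthase near the start of the pathway, stood at 146, 233 and 289 CPM. The exact 95% Poisson intervals ran from 141 to 150, from 228 to 239 and from 283 to 295 CPM. Both knockdown libraries lay above the control, and none of the 3 intervals overlap. The log2 folds were 0.68 and 0.98 (SE of their mean 0.23), and limma's adjusted p was 0.208. Its gene lies at chr5:43289395-43313512 on the minus strand of GRCh38, and the promoter window printed above holds CCAAT boxes 155 and 100 bases before the start. Another RefSeq window of HMGCS1, at chr5:43313182-43313431, holds no CCAAT box. Of the exonic bases of HMGCS1, 15.0% also lie in exons of AC114947.2.

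PMVK, which adds a phosphate to phosphomevalonate, had the largest folds of the 30 genes, from a low level. It gave 160, 495 and 384 reads, or 5.78, 16.8 and 13.4 CPM, with intervals of 4.92 to 6.75, 15.4 to 18.4 and 12.1 to 14.8 CPM. The control interval lay below both others. The log2 folds were 1.40 and 1.09 (SE 0.29), with an adjusted p of 0.133 in limma, 0.0774 in edgeR and 0.0597 in DESeq2. With upper-quartile scaling limma's adjusted p was 0.0490, within a range of 0.0490 to 0.566 over the alternatives. PMVK lies at chr1:154924734-154936991 on the minus strand, and its printed promoter holds no CCAAT box.

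MVD, the decarboxylase that makes isopentenyl diphosphate, had nearly equal folds with both siRNAs. Its levels were 24.3, 43.2 and 41.9 CPM. The knockdown libraries were both above the control, and their intervals of 40.8 to 45.6 and 39.5 to 44.3 CPM overlap each other. The log2 folds were 0.80 and 0.76 (SE 0.25), and limma's adjusted p was 0.268. Its promoter, printed above, holds 3 CCAAT boxes.

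The other mevalonate genes stood closer to the control. FDPS, the farnesyl diphosphate synthase, stood at 31.3, 44.7 and 56.5 CPM (log2 folds 0.50 and 0.83, adjusted p = 0.383 in limma). GGPS1, which makes geranylgeranyl diphosphate for protein prenylation, stood at 25.3, 35.5 and 35.1 CPM (0.48 and 0.46). In both genes the control interval lay below those of the knockdown libraries. MVK, the mevalonate kinase, had log2 folds of 0.27 and 0.38 over 40.5 CPM. IDI1, the isomerase of isopentenyl diphosphate, had 0.08 and 0.30 over 82.5 CPM. ACAT2, a cytosolic thiolase that joins acetyl-CoA units, had 0.14 and 0.48 over 96.3 CPM. Of the exonic bases of ACAT2 52.3% and of GGPS1 41.0% also lie in exons of neighbouring genes in GENCODE 29, such as TCP1 for ACAT2 and TBCE and ARID4B for GGPS1, so their counts are uncertain.

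**Figure D2:**
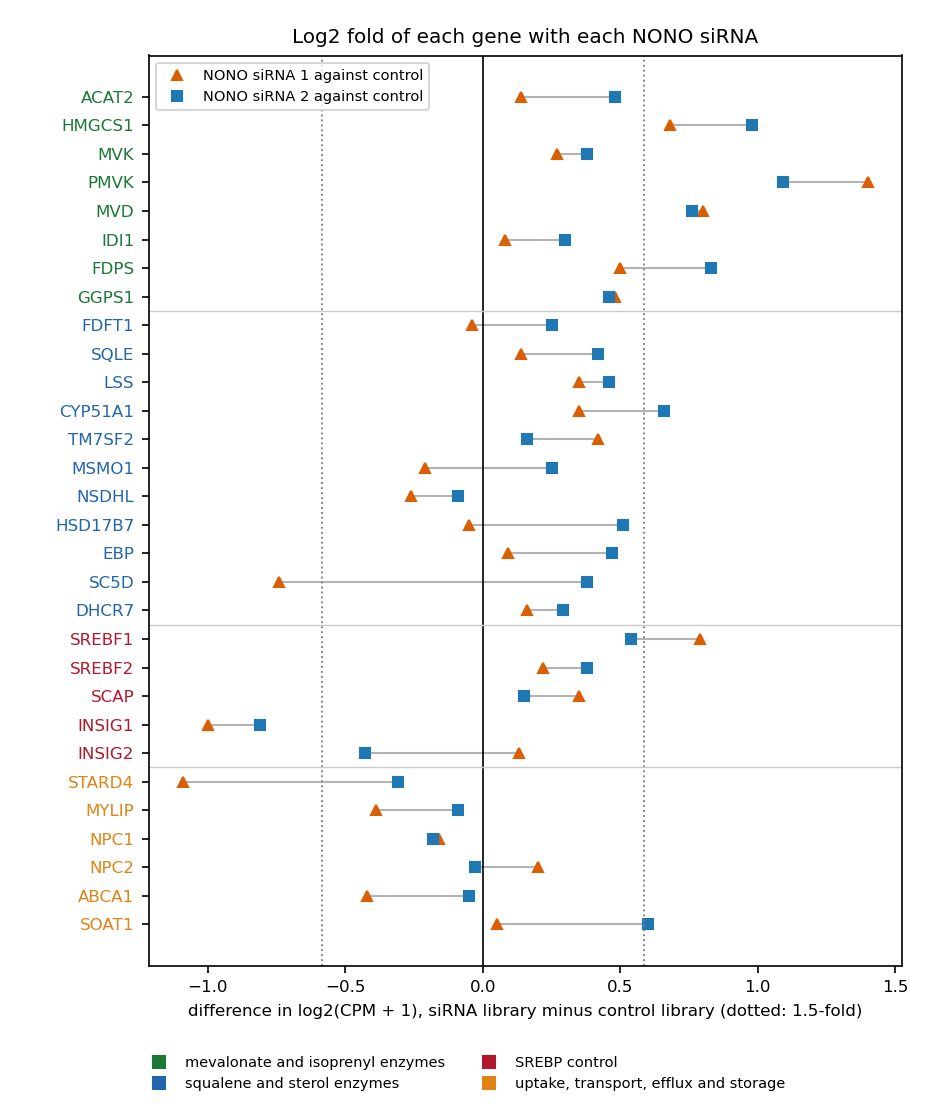
Log2 fold on log2(CPM + 1) of each gene with NONO siRNA 1 (orange triangles) and NONO siRNA 2 (blue squares) against the control library, in pathway order; each point is 1 library against the same control, dotted lines mark 1.5-fold, and there are no error bars because each siRNA has 1 library. The mevalonate genes all lie to the right of 0, the SC5D points lie on opposite sides at -0.74 and 0.38, and INSIG1 and STARD4 lie to the left.

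The enzymes from squalene to cholesterol stood near the control with siRNA 1 and mostly above it with siRNA 2. Summed over the 11 genes, the level was 1501, 1500 and 1862 CPM. Higher with siRNA 1 were 6 of the 11, against 52.6% of all genes tested, which is near that background. Higher with siRNA 2 were 10 of the 11, against 50.7%. The median log2 folds were 0.09 and 0.38. No enzyme of this group had an unadjusted p under 0.05.

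FDFT1, the squalene synthase at the branch point to sterols, stood at 278, 269 and 331 CPM. SQLE, the squalene epoxidase, stood at 241, 265 and 324 CPM, and LSS, which closes the ring to lanosterol, at 119, 152 and 164 CPM. The siRNA 2 library was the highest of the 3 in each of these genes. DHCR7, which takes the last step to cholesterol by one route, stood at 361, 405 and 441 CPM. Per kb of exon, DHCR7 had the highest level of the 30 genes in each library, at 86.8, 97.3 and 106 CPM per kb, followed by MSMO1 at 79.9, 69.0 and 95.2 CPM per kb. SQLE was next, at 56.0, 61.6 and 75.3 CPM per kb, and ABCA1 was lowest, at 0.197, 0.126 and 0.188 CPM per kb.

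SC5D, the desaturase that acts just before DHCR7, was the enzyme on which the siRNAs differed most. Its levels were 127 CPM (123 to 131), 75.9 CPM (72.8 to 79.1) and 166 CPM (161 to 171). The siRNA 1 library was the lowest and the siRNA 2 library the highest, with no overlap of the intervals. The log2 folds of -0.74 and 0.38 have opposite signs (limma adjusted p = 0.912), and the difference between the siRNAs has no replicate check. The 3′ UTR of SC5D, on chromosome 11, holds 1 site for the seed of NONO siRNA 1's complementary strand and none for NONO siRNA 2. The site is shown with its flanks, the 7 matching bases in capitals.
SC5D base 1014: tttaacaaataCATTCATaagg

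Across all genes searched, those with such a site stood slightly lower with siRNA 1. At least 1 site was found in 1622 of 11317 genes (14.3%), whose median log2 fold was -0.13 with siRNA 1 and 0.03 with siRNA 2, beside 0.03 and -0.01 in genes without a site. Of the 29 members searched, 3 held a site (10.3%), namely SC5D, ABCA1 and INSIG1. The part of these sites in any level was not tested.

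MSMO1, which removes methyl groups of lanosterol's ring, had folds of the same pattern as SC5D at a smaller size, at 231, 200 and 275 CPM (log2 folds -0.21 and 0.25), with no siRNA 1 seed site. NSDHL, which acts in the same demethylation, was the only enzyme of synthesis lower with both siRNAs, at 91.2, 76.1 and 85.9 CPM (-0.26 and -0.09). EBP, the sterol isomerase, had log2 folds of 0.09 and 0.47. HSD17B7, a keto-reductase of the demethylation complex, had -0.05 and 0.51 over 11 CPM. Its near-identical copy HSD17B7P2 stood at 4.08, 4.73 and 5.95 CPM, so the division of reads between them is uncertain. CYP51A1, the lanosterol demethylase, had 0.35 and 0.66 over 5.27 CPM, and 83.2% of its exonic bases are shared with other annotated genes, CYP51A1-AS1 among them, so its level is uncertain. TM7SF2, a sterol reductase, had 0.42 and 0.16 over 3.87 CPM, and it alone of the members held a seed site of the control siRNA's labelled strand in its 3′ UTR. The 209 genes with that site had median log2 folds of 0.23 and 0.18, beside 0.01 and -0.01 in genes without it, and its part in the TM7SF2 values was not tested.

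Higher with siRNA 2 than with siRNA 1 were 21 of the 30 genes (70.0%, against 47.3% of all genes tested), among them 10 of the 11 enzymes from squalene on and 5 of the 8 before it. This comparison does not involve the control library, and it sets 1 library against 1. The siRNA 1 level was below the siRNA 2 level by 1.5-fold or more in 2 of the 30, namely SC5D and STARD4. That is 6.67%, near the 6.92% of all genes. The reverse, siRNA 1 above siRNA 2 by that size, held for none of the 30 and for 4.11% of all genes.

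**Figure D3:**
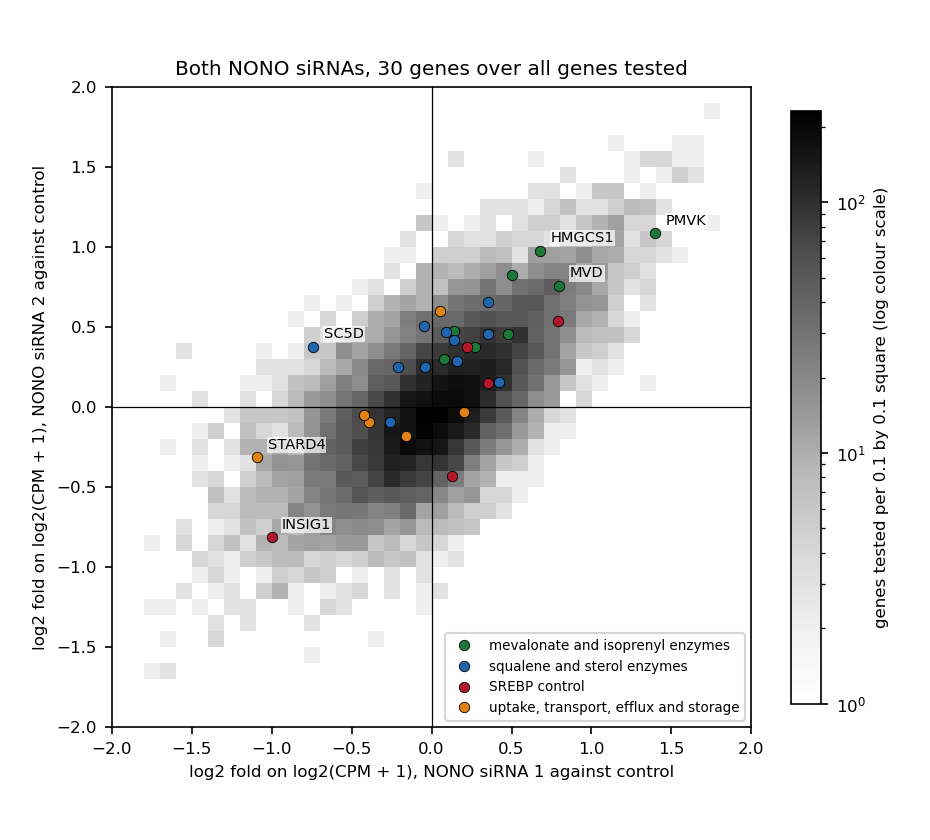
Log2 fold with NONO siRNA 1 (x axis) and with NONO siRNA 2 (y axis), both on log2(CPM + 1) against the same control library; grey squares count all genes tested and coloured points are the 30 genes by role. The 18 genes in the upper right are higher with both siRNAs, INSIG1 lies at -1.0 and -0.81, and SC5D lies in the upper left.

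Within the SREBP system the factors and their escort stood higher and INSIG1 lower. SREBF1, which codes for SREBP1, a factor that also drives fatty acid synthesis, stood at 106 CPM (103 to 110), 184 CPM (179 to 189) and 155 CPM (151 to 160). Both knockdown libraries lay above the control. The log2 folds were 0.79 and 0.54 (SE 0.23), with an adjusted p of 0.315 in limma. SREBF2, which codes for SREBP2, the main factor of the cholesterol genes, stood at 352, 411 and 458 CPM (0.22 and 0.38). SCAP stood at 66.2, 84.9 and 73.7 CPM (0.35 and 0.15).

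INSIG1, which keeps SCAP in the endoplasmic reticulum and is itself a known SREBP target, was the only one of the 30 genes at least 1.5-fold lower with both siRNAs. It gave 3455, 1821 and 2017 reads, or 125 CPM (121 to 129), 61.9 CPM (59.1 to 64.8) and 70.5 CPM (67.5 to 73.7). Both knockdown libraries lay below the control, at 49.6% and 56.5% of it, and no intervals overlap. The log2 folds were -1.0 and -0.81 (SE 0.24), with an adjusted p of 0.179 in limma, 0.0970 in edgeR and 0.115 in DESeq2. INSIG1 thus stood opposite to HMGCS1, MVD and the other mevalonate genes. INSIG2, its paralog, had log2 folds of 0.13 and -0.43 over 13.7 CPM, so both paralogs were lower with siRNA 2. With siRNA 1 the sign differed, but the INSIG2 intervals of control (12.3 to 15.1 CPM) and siRNA 1 (13.8 to 16.6 CPM) overlap.

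The INSIG1 gene lies at chr7:155297776-155310235 on the plus strand. Its 3′ UTR holds 4 sites for the seed of NONO siRNA 1's complementary strand. They are shown with their flanks, the 7 matching bases in capitals and positions counted from the first base of the 3′ UTR.
INSIG1 base 290: gtattcgatttCATTCATgtga
INSIG1 base 1114: agaaggttctcCATTCATttca
INSIG1 base 1893: agtgaggttcaCATTCATacta
INSIG1 base 1929: tgttctttttgCATTCATtttt

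At least 2 such sites were found in 346 genes, with medians of -0.21 with siRNA 1 and 0.03 with siRNA 2, and 230 of them were lower with siRNA 1. At least 3 were found in 87 genes, with medians of -0.06 and 0.08. At least 4 such sites were found in 29 of 11317 genes (0.256%), whose median log2 fold was 0.02 with siRNA 1 and 0.02 with siRNA 2. For NONO siRNA 2, neither strand has a seed site in the INSIG1 3′ UTR, and with siRNA 2 the log2 fold of INSIG1 was -0.81. The part of the sites in the siRNA 1 value was not tested. SREBF1 and MVK were the members with a site for the complementary strand of NONO siRNA 2, and both stood higher with it, by log2 folds of 0.54 and 0.38.

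The genes of uptake, transport, export and storage stood closest to or below the control. Of the 6 tested, 4 were lower with both siRNAs (against 34.5% of all genes) and 1 was higher with both (against 37.8%). The median log2 folds were -0.27 and -0.07. STARD4, a carrier that moves sterols between membranes and a known SREBP2 target, stood at 93.1 CPM (89.5 to 96.7), 43.3 CPM (41.0 to 45.8) and 74.7 CPM (71.6 to 77.9). The siRNA 1 library was far below the others, and no intervals overlap. The log2 folds were -1.09 and -0.31 (SE 0.33), with an adjusted p of 0.475 in limma, and STARD4 holds no seed site of any of the siRNA strands in its 3′ UTR.

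SOAT1, which esterifies cholesterol for storage, stood at 126, 130 and 191 CPM, so that siRNA 2 alone stood apart (log2 folds 0.05 and 0.60). NPC1 and NPC2, which pass cholesterol out of lysosomes, stayed within 0.20 of the control on the log2 scale with either siRNA. NPC1 stood at 76.1, 68.2 and 67.2 CPM and NPC2 at 95.4, 110 and 93.1 CPM. MYLIP, a ubiquitin ligase that marks lipoprotein receptors for degradation and a known LXR target, had log2 folds of -0.39 and -0.09 over 24.0 CPM. ABCA1, the LXR-induced exporter, gave 62, 42 and 61 reads (2.24, 1.43 and 2.13 CPM), and its Poisson intervals overlap.

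Genes around the pathway were read from 3 further lists. Of 58 genes named there, 56 were listed in all tables and 55 were tested. With both siRNAs 24 were higher and 16 lower, against 37.8% and 34.5% of all genes, and 7 and 1 of these were past 1.5-fold, against 5.49% and 3.39%. The median log2 folds were 0.00 and 0.09, beside 0.03 and 0.01 over all genes. The counts of the single lists that follow are to be read against the same shares. These lists were also chosen with earlier results of these data known. ICMT alone passed limma's test, standing at 47.5, 171 and 173 CPM (SE of the mean log2 fold 0.23, adjusted p = 0.0324), and it codes for the enzyme that methylates prenylated proteins. This call was lost in 4 alternatives, with adjusted p between 0.0687 and 0.566.

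In the list of SREBP transport, processing and turnover, 5 of 15 genes were higher and 4 lower with both siRNAs, with medians of -0.02 and 0.04. ERLIN2, a scaffold of the endoplasmic reticulum that takes part in sterol-controlled protein degradation, stood at 23.1, 50.4 and 61.4 CPM (log2 folds 1.09 and 1.37, adjusted p = 0.112 in limma, over a range of 0.0199 to 0.566). It was called by DESeq2 and, in limma, with upper-quartile scaling. MBTPS1, the first of the Golgi proteases that cut SREBP, stood at 76.3, 125 and 132 CPM (0.71 and 0.78, adjusted p = 0.248 in limma). In both genes the knockdown libraries lay above the control.

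In the isoprenoid list, 7 of 14 genes were higher and 5 lower with both siRNAs, with medians of 0.19 and 0.07. PDSS2, which makes the side chain of coenzyme Q, stood at 8.20, 20.1 and 20.0 CPM (log2 folds 1.19 and 1.19, adjusted p = 0.125 in limma). COQ2, which attaches that chain, stood at 13.7, 23.8 and 25.6 CPM (0.76 and 0.86). The 3′ UTR of PDSS2 holds 1 seed site of the control siRNA's complementary strand and 1 of NONO siRNA 2's labelled strand. The 310 genes with the control site had median log2 folds of 0.11 and 0.09, beside 0.01 and -0.01 in genes without it. The part of these sites in the PDSS2 values was not tested. Of the 26 tested genes of sterol transport, storage and oxysterols, 12 were higher and 7 lower with both siRNAs, with medians of -0.02 and 0.15. OSBP, a sterol carrier at contacts of the endoplasmic reticulum and the Golgi, had log2 folds of 0.92 and 0.73 over 57.6 CPM. MMAB, a neighbour of MVK whose exons overlap it, had 0.66 and 0.75 over 15.0 CPM. GRAMD1B, a sterol carrier at contacts with the plasma membrane, had -1.33 and -0.59 over 3.83 CPM. Its mean of -0.96 was -0.44 with a pseudocount of 5 and -1.36 with a pseudocount of 0.1. OSBP, MMAB and GRAMD1B did not pass the test.

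**Figure D4:**
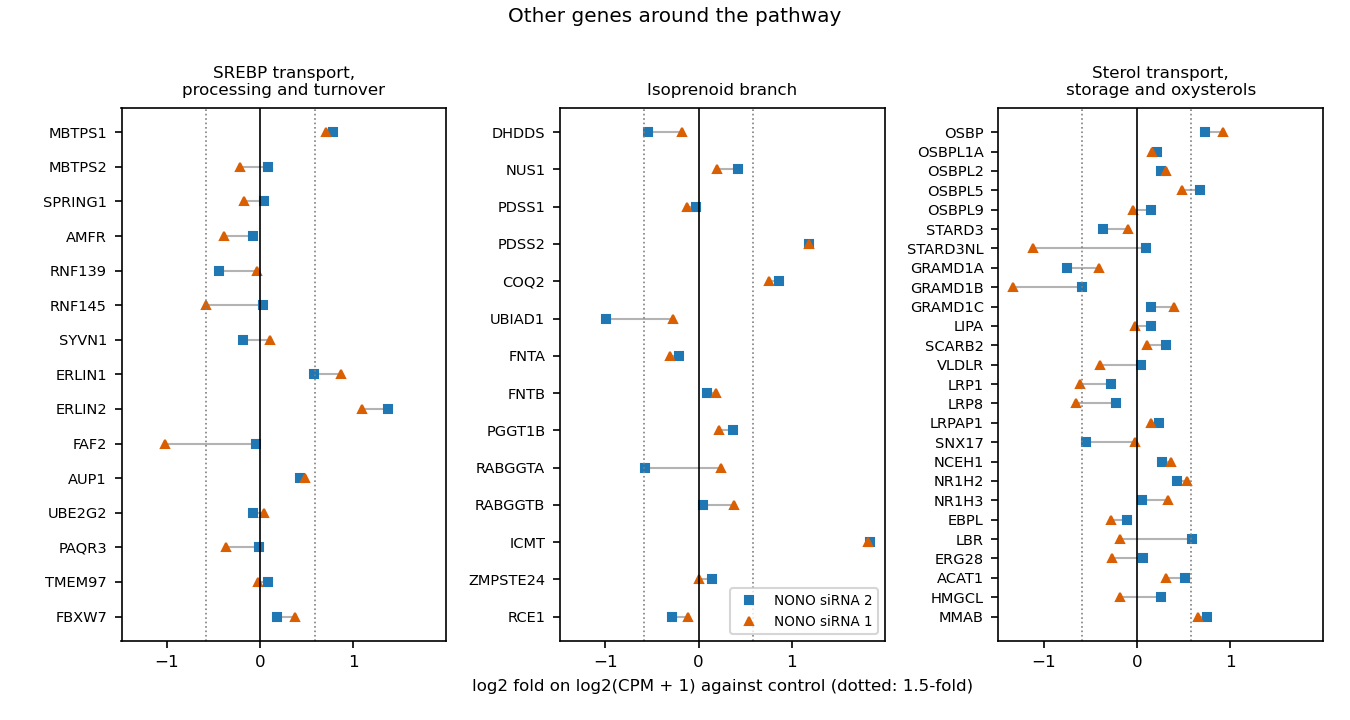
Log2 fold on log2(CPM + 1) of the 55 tested genes of the 3 further lists with NONO siRNA 1 (orange triangles) and NONO siRNA 2 (blue squares) against the same control library; dotted lines mark 1.5-fold and there are no error bars because each siRNA has 1 library. ICMT, ERLIN2 and PDSS2 lie farthest to the right, and the points of most other genes lie between the dotted lines.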

How the data were processed

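RNA of 3 libraries was analysed: 1 with control siRNA and 2 with NONO siRNAs. Per the submitters' processing notes, which give no roles, the tools were HTSeq 0.6.1, bcl2fastq 2.19.1 and HISAT2 2.1.0, with GRCh37 and hg19 as builds. For strand and annotation nothing is given in the sources used here, so overlapping genes are uncertain. The authors deposited 1 table of CPM per library. Of these values 99.34%, 99.34% and 99.48% were whole multiples, within 0.01, of what 1 read is worth, and 147, 147 and 117 genes at 0.5 of a read were taken as 0 reads.

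limma 3.58.1 with a trend (R 4.3.3) compared NONO siRNA with control on log2(CPM + 1) over the 13922 genes that reached 1 CPM in any library, with Benjamini-Hochberg adjustment, two-sided. The lone control leaves 1 residual degree of freedom beside 7.68 prior ones and is assumed to vary like the NONO libraries. All 30 genes passed the filter. edgeR 4.0.16 and DESeq2 1.42.0 were run on recovered reads as alternatives, which called 156 and 198 genes. limma and edgeR were tested on simulated data. The log2 scale with its pseudocount understates changes of genes near 1 CPM. Poisson intervals are exact at 95% and cover counting error only, as reads without molecular identifiers are not independent molecules.

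All members are described, with full values if they passed limma's test, were at least 1.5-fold changed in 1 direction with both siRNAs, or differed at least 1.5-fold between the siRNAs. The errors or adjusted p of FDPS and SREBF1 were added after their values were seen. Of 14 further-list genes that met this rule, the 8 with the largest smaller fold were described. The members and lists were chosen with earlier results of these data known. Of 21308 identifiers, 21049 had a symbol in the name table used. Gene coordinates, exon lengths and 3′ UTRs are of GENCODE 29 (GRCh38) and promoters of RefSeq (GRCh38.p14), not the build in the notes. Seed sites of 7 bases were searched in the 3′ UTR, of at least 50 bases, of the transcript with the longest coding sequence.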

Additional observations from a re-analysis of the deposited data

How the results depend on the processing

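No paired analysis was possible because the control group is 1 library, so the groups share fewer than 2 replicate numbers. A fit without the control library has no comparison and was not run. Over the 9 alternatives of scaling, pseudocount, filter, variance model and tool, 17 to 18 members were higher and 5 to 6 lower with both siRNAs. Past 1.5-fold were 3 and 1. The counts of 17 and 5 came from the filter of a mean of at least 5 CPM, which kept 28 of the 30 genes. The members' median log2 fold ranged from 0.11 to 0.14 with siRNA 1 and from 0.36 to 0.38 with siRNA 2. The median of the mean, 0.27, was 0.14 to 0.38 when either siRNA was left out. No scaling moved the median of all genes by more than 0.05.

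Counts of calls moved with the settings, and the cause was not tested. Against 19 higher and 11 lower over all genes, TMM scaling gave 1 and 3, upper-quartile scaling 161 and 80, no filter 0 and 0, a mean of at least 5 CPM 2 and 3, limma without a trend 0 and 3, edgeR 86 and 70, and DESeq2 138 and 60. A pseudocount of 5 gave 27 lower. Upper-quartile scaling called PMVK, 1 of the 30 genes, and 3 genes of the further lists. DESeq2 called 2 of these lists, and TMM scaling, no filter, the 5 CPM filter and limma without a trend called 0. SC5D was 0.38 without siRNA 1 and -0.74 without siRNA 2, against a mean of -0.18. The median of the SREBP processing list, -0.04, was -0.02 to 0.04 with either siRNA left out, and that of the sterol transport list, 0.13, was -0.02 to 0.15. With 1 library per siRNA, a difference between the siRNAs cannot be tested at any depth.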
